A study of Mus musculus with 9 samples.

Results

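The control cranial base was compared with the control cranial vault of E14.5 mouse embryos, over all genes measured by RNAseq. Of the 9 libraries of the series, 6 belong to this comparison, 3 from the control cranial base and 3 from the control cranial vault. The labels give both tissues as wildtype on a mixed strain, and the study's methods describe the embryos as controls from a cross of Msx2-Cre with CAGF8 mice. By the breeding scheme every embryo of such a cross inherits the CAGF8 allele, which Cre must activate, and mutants are told from controls by their Cre, so the controls carry CAGF8 in its inactive form although the labels call them wildtype. The vault tissue was dissected from below the skin, and the same control embryos then gave the cartilage of the base, once freed of the brain. RNA from 9 tissue samples was combined into 3 pools of 3 samples for each tissue, so each library is a pool and single embryos were not measured. Which embryos went into which pool is not stated. The other 3 libraries were from the vault of MCAGF8 embryos. In these embryos, Cre driven by the Msx2 promoter turned on Fgf8 in the surface ectoderm. The MCAGF8 libraries entered the estimate of the error and the choice of genes to test, but not the difference between base and vault.

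The floor and the roof of the skull are built in different ways. In the cranial base, mesenchyme condenses into cartilage, chondrocytes mature to a hypertrophic state marked by collagen X, and bone later replaces the cartilage (endochondral ossification). In the cranial vault, mesenchyme turns into osteoblasts directly and lays down a matrix rich in collagen I (intramembranous ossification). The base also lies next to the pharynx, the inner ear, the pituitary and the cranial ganglia, while the vault lies between skin and brain.

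Values are FPKM, fragments per kilobase of transcript scaled to the mapped fragments of the library, as the authors deposited them. Added over all genes, the FPKM came to 1315981.5, 793249.1 and 1122988.7 in control cranial base replicates 1, 2 and 3, and to 929727.9, 1020107.8 and 1131826.4 in the vault. The number of reads is not given, so the depth behind each value is unknown. Across genes, Pearson's r of the log2 values was 0.97 to 0.974 between vault libraries and 0.904 to 0.946 between base libraries, with genes not being independent replicates. The base libraries thus differed more among themselves. Between a base and a vault library r was 0.919 to 0.952, and it was highest for base replicate 2 with vault replicate 1. Base replicate 2 was closer to that vault library than to base replicate 1 or 3 (0.904 and 0.927). Where 3 values of a tissue are listed they are in the order of replicates 1, 2 and 3, and elsewhere the range is given.

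At a filter on the mean FPKM of 0.5 or more, 18714 genes were tested and 573 were called between the tissues (3.06% of the genes tested). A call needs a p below 0.05 and, after Benjamini-Hochberg adjustment over all genes tested, an adjusted p below 0.1 in limma. Of these, 347 were higher in the base (1.85%) and 226 were higher in the vault (1.21%). The 3 base values lay entirely above or below the 3 vault values for 2910 genes (15.5%), of which 1658 were higher in the base and 1252 in the vault, and all 573 called genes were among them. Log2 differences are base minus vault on the scale log2(FPKM + 1), each with its standard error (SE), and the median over all genes tested was 0.067. After quantile normalization the split turned to 236 genes higher in the base and 390 higher in the vault, so that 37.7% of the called genes were higher in the base, compared with 60.6% without it. The number called also depended on the libraries in the fit. It was 108 with the 6 control libraries alone, 1322 without base replicate 2 and 132 without vault replicate 3. Of the 573 genes, 118 were called in each of the 9 fits that left out 1 library, 71 of them higher in the base and 47 in the vault. Fold values below are ratios of mean FPKM. In bulk tissue, fewer cells of a type and less RNA per cell cannot be told apart.

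**Figure D1:**
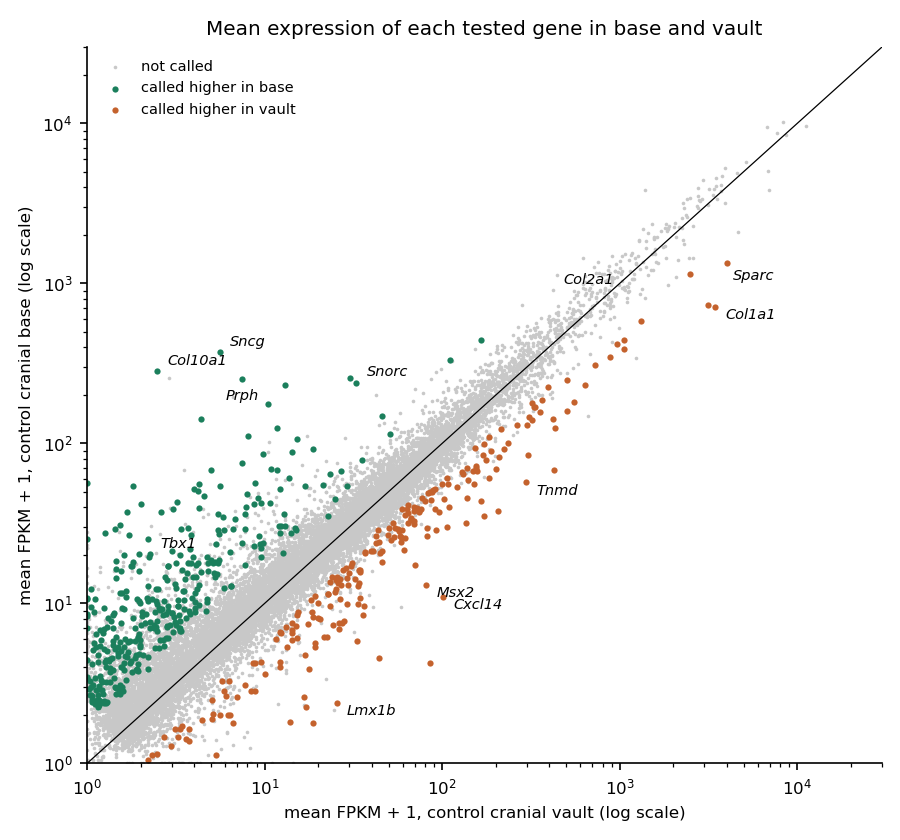
Mean FPKM + 1 of each of the 18714 genes tested, control cranial vault on the horizontal and control cranial base on the vertical axis (both log scales, n = 3 libraries each), with the line of equal means. The 347 genes called higher in the base (green) lie above the line and the 226 called higher in the vault (orange) below it, and Col2a1 lies among the genes that were not called (gray).

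The mature cartilage signature of the 3 base libraries was uneven. Col2a1 encodes the main collagen of cartilage. Its FPKM was 163, 2292 and 268 in the base and 373, 462 and 421 in the vault. Base replicate 2 thus stood above every vault library, and base replicates 1 and 3 stood below every vault library. The same order held for 6 of the 7 genes of cartilage collagens II, IX, XI and XXVII, and for 611 of the 18714 genes tested. The summed FPKM of the 7 genes was 650, 7533 and 1203 in the base, 8.13-fold higher in replicate 2 than in the mean of replicates 1 and 3, and 1730 to 2357 in the vault. The list's median log2 difference was 0.04, and 0 of its 7 members were called. Without base replicate 2 the median was -0.99 and 2 members were called, both higher in the vault. So in 6 of these 7 genes, base replicate 2 alone stood above the vault. Snorc and Col10a1, described below, were above the vault in all 3 base libraries. How much cartilage each pool held was not tested.

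Other cartilage genes split into a set that followed the collagens and a smaller set that did not. Acan, the large proteoglycan aggrecan, was at 12.7, 241 and 26.5 in the base and 32.8 to 42.8 in the vault. Matn1, a matrilin of cartilage matrix, was at 46.3, 999 and 119, compared with 134 to 183 in the vault. Sox9, the transcription factor that specifies chondrocytes, was at 18.5, 80.3 and 19.96, compared with 21.3 to 24.6. These 3 genes overlapped between the tissues and were not called (adjusted p 0.978, 0.980 and 0.866). Of 23 genes of cartilage proteoglycans and other matrix, 18 were highest in base replicate 2 among the base libraries, and the list's median log2 difference was 0.58. Without base replicate 2 the median was -0.16, with 2 members called higher in the base and 1 higher in the vault. The partners of Sox9 showed the same order, with Sox5 at 4.59, 39.5 and 6.87 in the base and 10.5 to 15.9 in the vault, and Sox6 at 6.93, 31.9 and 11.8 in the base and 13.7 to 19 in the vault.

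Of the cartilage matrix genes, 2 were called, and both were high in all 3 base libraries. Snorc, a transmembrane proteoglycan of chondrocytes, was at 199, 367 and 150 in the base and 25.7, 47.5 and 22.4 in the vault. The tissues did not overlap, and Snorc was 7.49-fold higher in the base (log2 difference 2.84, SE 0.46, adjusted p 0.0214). It was no longer called without vault replicate 3 (adjusted p 0.111). Scrg1, a secreted factor first known from scrapie and expressed during chondrogenesis, was at 114, 59.0 and 31.4 in the base and 6.67, 13.3 and 9.46 in the vault. Its log2 difference was 2.54 (SE 0.50, adjusted p 0.0466), and it was no longer called without vault replicate 1 or 3 (0.163 and 0.168). In Scrg1 the highest base library was replicate 1, not replicate 2. Comp, a pentameric glycoprotein of cartilage and tendon, was at 11, 77.5 and 11.9 in the base and 1.71 to 6.07 in the vault without overlap, with an adjusted p of 0.196. The exons of Snorc span 722 bases, those of Matn1 2001, Sox9 4135 and Acan 7469, and those of Col10a1, described below, 3130. Relative to each gene's mean, log2(FPKM + 1) had a slope per doubling of exon length of -0.21, 0.10 and -0.02 in base replicates 1, 2 and 3. Snorc was still called in limma with the length and GC trend removed (adjusted p 0.0328). The part of exon length in the split of the cartilage genes was not tested.

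**Figure D2:**
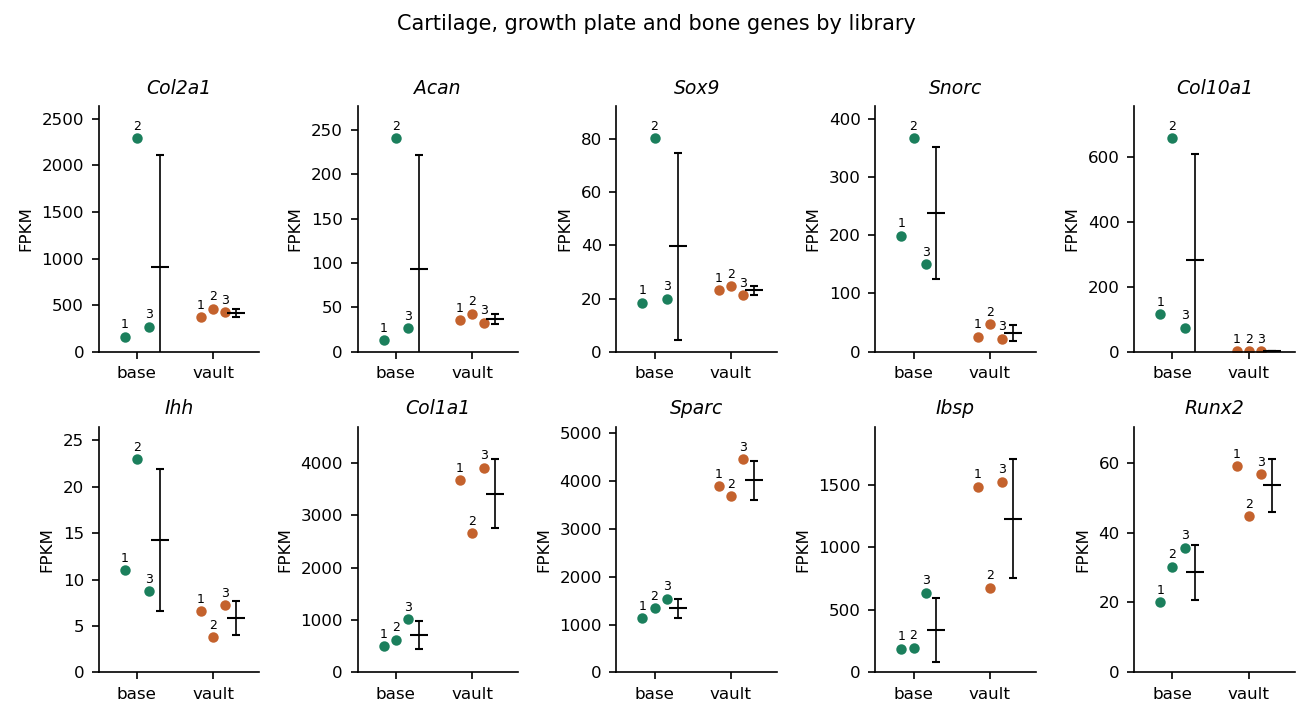
FPKM of 10 cartilage, growth plate and bone genes (vertical axes, linear from 0) in the 3 control cranial base and 3 control cranial vault libraries. Points carry the replicate number, and the bar beside them is the mean ± SD (n = 3), cut at 0 where it would reach below. Col2a1, Acan and Sox9 are high in base replicate 2 alone. Snorc, Col10a1 and Ihh are above the vault in all 3 base libraries, and Col1a1, Sparc, Ibsp and Runx2 are below it in all 3.

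On the scale log2(FPKM + 1), the highest called difference of the comparison was in collagen X. Col10a1 (chromosome 10, 34389981 to 34397085, GENCODE M21 on GRCm38) encodes the collagen that hypertrophic chondrocytes secrete. It was at 115, 658 and 74.2 FPKM in the base and at 2.05, 0.945 and 1.46 in the vault. Every base library was high, including replicates 1 and 3 in which Col2a1 was low. Col10a1 was 190.0-fold higher in the base (log2 difference 6.20, SE 0.65, adjusted p 0.00386), and it was called in each fit that left out 1 library. The 300 bases around its start, from RefSeq on GRCm38.p6, are shown because Col10a1 leads the comparison. They lie at chr10:34389731-34390030 on the plus strand, run from 250 bases before the start to 50 after it, and show in capitals a homeodomain core TAATTA that begins 106 bases before the start and a TATA box TATAAA that begins 32 bases before it.
Col10a1: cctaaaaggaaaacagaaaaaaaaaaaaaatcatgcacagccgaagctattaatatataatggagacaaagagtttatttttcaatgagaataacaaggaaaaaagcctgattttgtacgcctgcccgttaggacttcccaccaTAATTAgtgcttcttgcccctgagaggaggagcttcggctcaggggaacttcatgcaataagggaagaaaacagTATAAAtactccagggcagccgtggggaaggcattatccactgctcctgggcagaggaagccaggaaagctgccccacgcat
Of the 11928 tested genes with a promoter in the table used, 7.55% hold TATAAA on either strand and 2.57% hold TAATTA. The TATA box was found in 26 of 229 promoters of genes called higher in the base and in 23 of 159 of genes called higher in the vault. These are matches to letters and not sites known to be bound.

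The other growth plate genes moved less. Of 17 hypertrophic and growth plate genes, 3 were called and all 3 were higher in the base, and the list's median log2 difference was 0.10. Foxa2, a forkhead factor of the hypertrophic chondrocyte and of the notochord, was at 2.31, 5.39 and 2.47 in the base and 0.241 to 0.288 in the vault (log2 difference 1.72, SE 0.30, adjusted p 0.0264). Foxa2 was no longer called without vault replicate 3 (0.116). Pthlh, the ligand that holds chondrocytes in proliferation, was at 5.94, 9.76 and 10.8 in the base and 2.25 to 3.78 in the vault (log2 difference 1.20, SE 0.30, adjusted p 0.0938). Pthlh was no longer called in 8 of the 9 fits that left out 1 library, all but that without base replicate 1 (0.105 to 0.285). Ihh, the hedgehog ligand of prehypertrophic chondrocytes, was at 11, 23.0 and 8.75 in the base and 3.78 to 7.23 in the vault. The Ihh values did not overlap, but the adjusted p was 0.210. Mmp13, the collagenase of late hypertrophy, was at 4.09, 2.39 and 13.9 in the base and 1.54 to 4.46 in the vault (adjusted p 0.691), and Pth1r, the receptor of Pthlh, was at 83.1 to 107 and 96.3 to 152 (adjusted p 0.775).

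The chondrocyte transcription factors that were called, Nkx3-2 and Pax9, also pattern the pharynx or the axial skeleton. Nkx3-2, a repressor that promotes chondrogenesis, was at 6.42, 9.14 and 4.29 in the base and 0.926, 1.85 and 1.04 in the vault (log2 difference 1.72, SE 0.31, adjusted p 0.0342). Pax9, a paired box factor of pharyngeal pouches and sclerotome, was at 17.9, 6.47 and 24.1 in the base and 3.74, 0.456 and 1.36 in the vault (log2 difference 2.59, SE 0.51, adjusted p 0.0466). Base replicate 2, the richest in cartilage collagens, was the lowest of the base libraries for Pax9. Nkx3-2 was no longer called without vault replicate 1 or 3 (0.139 and 0.155), nor Pax9 without base replicate 3 or vault replicate 2 or 3 (0.125, 0.147 and 0.172). Of 13 chondrocyte transcription factors, these 2 were called and the median log2 difference was 0.47. Without base replicate 2 the median was 0.26, with 5 members called higher in the base and 1 higher in the vault. With the 6 control libraries alone, 0 of the 13 were called.

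Bone matrix genes were lower in the base. Of 29 genes of bone matrix and mineralization, 6 were called lower in the base and 0 higher, and the median log2 difference was -1.0. With the 6 control libraries alone, 0 of the 29 were called, and with the replicate number as a block 3 were, all lower in the base. The summed FPKM was 7586, 6007 and 7360 in the base and 17232, 14116 and 18625 in the vault. Col1a1, which encodes the main chain of collagen I, was at 500, 629 and 1013 in the base and 3676, 2664 and 3912 in the vault. It was 4.79-fold higher in the vault (log2 difference -2.30, SE 0.35, adjusted p 0.016). Col1a2, the other chain, was at 520, 741 and 921 in the base and 2716 to 3416 in the vault (log2 difference -2.14, SE 0.31, adjusted p 0.0158). Both genes were called in each fit that left out 1 library, and neither in the fit to the 6 control libraries alone (0.116 and 0.109).

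Sparc, a matrix protein that binds collagen and mineral, was at 1139, 1341 and 1539 in the base and 3681 to 4463 in the vault (log2 difference -1.59, SE 0.31, adjusted p 0.0464). Cthrc1, a secreted protein of osteoblasts and fibroblasts, was at 370 to 527 in the base and 943 to 1122 in the vault (log2 difference -1.26, SE 0.22, adjusted p 0.0295). Fkbp11, a prolyl isomerase of the secretory pathway, was at 54.6 to 68.2 in the base and 111 to 153 in the vault (log2 difference -1.0, SE 0.20, adjusted p 0.0465). Bglap2, an osteocalcin gene, was at 0.601, 0 and 1.85 in the base and 19.3, 2.71 and 16.5 in the vault (log2 difference -2.72, SE 0.61, adjusted p 0.0672). Bglap2 has close copies beside it, Bglap and Bglap3, and how the counting split their reads is not stated. Bglap was at 0.226, 0.187 and 3.54 in the base and 21.5, 0.707 and 24.8 in the vault. Its values overlapped and it was not called (log2 difference -2.41, SE 0.94, adjusted p 0.299). Of Sparc, Cthrc1, Fkbp11 and Bglap2, none was called in every fit that left out 1 library. Without vault replicate 1 the adjusted p was 0.156 for Sparc, 0.147 for Fkbp11 and 0.213 for Bglap2. Without vault replicate 2 it was 0.149 for Sparc and 0.126 for Cthrc1, and without vault replicate 3 it was 0.195, 0.191, 0.251 and 0.149 for Sparc, Fkbp11, Bglap2 and Cthrc1. Sparc and Bglap2 also lost the call without MCAGF8 replicate 1 or 3 (0.104 to 0.132), and Bglap2 without MCAGF8 replicate 2 or base replicate 1 (0.107 and 0.116).

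The genes of the mature osteoblast varied within each tissue. Ibsp, bone sialoprotein, was at 189, 199 and 638 in the base and 1487, 679 and 1527 in the vault. Spp1, osteopontin, was at 89.8, 117 and 237 in the base and 841, 306 and 836 in the vault. Neither overlapped, and neither was called (adjusted p 0.188 and 0.113). In both tissues 1 library departed from the others, base replicate 3 being the highest base library and vault replicate 2 the lowest vault library. Dmp1, Ifitm5, Phospho1, Alpl and Sp7 had the same highest base and lowest vault library. Ifitm5, a membrane protein of osteoblasts, was at 54.6, 33.3 and 159 in the base and 212, 99.3 and 277 in the vault (adjusted p 0.299). Base replicate 3 was the highest base library in 19 of the 29 bone genes.

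Among osteoblast transcription factors, 3 of 13 were called, and all 3 were lower in the base. Runx2, the factor that osteoblasts require, was at 19.997, 30.2 and 35.6 in the base and 59.0, 44.8 and 56.6 in the vault (log2 difference -0.91, SE 0.22, adjusted p 0.0898). Runx2 was no longer called without any 1 of the MCAGF8 or control vault libraries (0.125 to 0.303). Creb3l1, a stress sensor that activates collagen I genes, was at 38.8, 25.1 and 54.0 in the base and 87.5 to 129 in the vault (log2 difference -1.49, SE 0.29, adjusted p 0.0465). Creb3l1 was no longer called without vault replicate 1 or 3 (0.155 and 0.190). Sp7, which acts after Runx2, was at 37.4, 26.9 and 80.5 in the base and 55.4 to 123 in the vault, and Dlx5, a homeobox activator of bone genes, was at 23.4 to 37.1 in the base and 35.0 to 68.2 in the vault. Both overlapped and were not called (adjusted p 0.299 and 0.189). Msx2, the called member with the largest difference, is described with the patterning factors.

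The machinery that folds and secretes collagen was lower in the base as well. Of 34 genes, 6 were called lower in the base and 0 higher, 20 were below the vault without overlap, and the median log2 difference was -0.52. Pcolce, an enhancer of procollagen processing, was at 143, 153 and 176 in the base and 517, 460 and 531 in the vault (log2 difference -1.67, SE 0.17, adjusted p 0.00368). It was called in each fit that left out 1 library. Lox, the lysyl oxidase that crosslinks collagen, was at 143 to 175 in the base and 353 to 356 in the vault (log2 difference -1.18, SE 0.21, adjusted p 0.0296), and it was no longer called without vault replicate 1, 2 or 3 (0.115, 0.115 and 0.139). The other called members, apart from Creb3l1, were the prolyl hydroxylase complex genes Crtap and P3h1 and the coat protein gene Sec24d, with log2 differences of -0.82, -0.81 and -0.79. None of these 3 was called without any 1 vault library (0.169 to 0.345) or MCAGF8 replicate 1 or 3 (0.114 to 0.180), Crtap and P3h1 also not without MCAGF8 replicate 2 or base replicate 3 (0.102 to 0.200), and P3h1 not without base replicate 1 (0.117). Without base replicate 2, 17 of the 34 genes were called, all lower in the base.

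Connective tissue and tendon genes had some of the most even differences. Of 32 genes of small leucine-rich proteoglycans and connective tissue matrix, 12 were called lower in the base and 0 higher, and the median log2 difference was -0.90. Fmod, fibromodulin, which controls collagen fibril growth in tendon, was at 36.5, 47.6 and 26.3 in the base and 180, 223 and 213 in the vault. It was 5.58-fold higher in the vault (log2 difference -2.48, SE 0.23, adjusted p 0.00184). Tnc, tenascin C, was at 45.4, 87.9 and 70.5 in the base and 182 to 232 in the vault (log2 difference -1.59, SE 0.24, adjusted p 0.016). Col5a2, a chain of the collagen V that nucleates collagen I fibrils, was at 166 to 264 in the base and 624 to 651 in the vault (log2 difference -1.51, SE 0.23, adjusted p 0.016). These 3 genes were called in each fit that left out 1 library, as was the thrombospondin Thbs2 of the tendon list, at 86.0 to 155 in the base and 414 to 450 in the vault (log2 difference -1.83, SE 0.24, adjusted p 0.0105). In the fit to the 6 control libraries alone, 1 of these 32 genes and 2 of 8 tendon genes were called.

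Tnmd, tenomodulin, a membrane protein of tendon and ligament cells, was at 96.4, 43.9 and 28.7 in the base and 226, 367 and 293 in the vault (log2 difference -2.52, SE 0.39, adjusted p 0.0164), and it was called in each fit that left out 1 library. Mkx, a homeobox factor of tendon, was at 12.6 to 23.9 in the base and 39.1 to 50.02 in the vault (log2 difference -1.37, SE 0.25, adjusted p 0.0305). Mkx was no longer called without vault replicate 1, 2 or 3 (0.133, 0.118 and 0.104). Scx, the early tendon factor, was at 35.6 to 73.5 in the base and 28.5 to 42.7 in the vault (adjusted p 0.788). Of 8 tendon genes, 4 were called lower in the base, with a median log2 difference of -0.99. Dcn and Bgn, the fibroblast proteoglycans decorin and biglycan, were at 193 to 468 and 407 to 421 in the base and 641 to 800 and 915 to 1046 in the vault. Their log2 differences were -1.34 and -1.21 (adjusted p 0.086 and 0.0342), and neither was called without vault replicate 1, 2 or 3 (0.123 to 0.276). Dcn also lost the call without base replicate 3 or any 1 MCAGF8 library (0.113 to 0.209).

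Of 27 matrix proteases and inhibitors, 7 were called lower in the base and 1 higher. Mmp23, a membrane metalloproteinase, was at 8.01, 8.75 and 9.99 in the base and 30.2, 27.5 and 27.0 in the vault (log2 difference -1.56, SE 0.18, adjusted p 0.00605), and was called in each fit that left out 1 library. Adamts2, which removes the amino propeptide of procollagen, was at 20.9 to 32.2 in the base and 51.2 to 61.1 in the vault (log2 difference -1.20, SE 0.21, adjusted p 0.0301), and lost the call without vault replicate 1 or 3 (0.123 and 0.147). Htra1, a secreted serine protease that is also a target of FGF signals, was at 70.0 to 98.7 in the base and 196 to 226 in the vault (log2 difference -1.36, SE 0.23, adjusted p 0.0233), and lost the call without vault replicate 3 (0.125). Mmp24, a membrane metalloproteinase known from neurons, was the member higher in the base, at 2.10, 3.96 and 18.9 compared with 0.126 to 0.329 (log2 difference 2.44, SE 0.56, adjusted p 0.0713). Mmp24 was no longer called without any 1 of the vault or MCAGF8 libraries (0.110 to 0.219).

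Patterning transcription factors were called in opposite directions for the vault and the base. Of 20 vault patterning factors, 7 were called lower in the base and 0 higher, 12 were below the vault without overlap, and the median log2 difference was -1.97. Lmx1b, a LIM homeobox factor of the head mesenchyme, was at 0.783, 0.830 and 2.59 FPKM in the base and 23.1, 26.1 and 24.1 in the vault (log2 difference -3.48, SE 0.28, adjusted p 0.00107). Lmx1b was the called protein-coding gene with the lowest log2 difference, and it was lower still for 1 other gene, C130021I20Rik. This noncoding gene, which GENCODE lists as antisense, was at 1.74, 2.71 and 5.25 in the base and 73.6, 104 and 76.9 in the vault (log2 difference -4.41, SE 0.29, adjusted p 0.000398). Both were called in each fit that left out 1 library. In RefSeq the 2 genes start 95 bases apart on chromosome 2 and run in opposite directions, Lmx1b on the minus strand from 33641098 and C130021I20Rik on the plus strand from 33641193. The promoter of Lmx1b, at chr2:33641049-33641348 on the minus strand of GRCm38.p6, is shown because it holds both starts, and its capitals mark the CCAAT boxes that begin 236 and 84 bases before the start.
Lmx1b: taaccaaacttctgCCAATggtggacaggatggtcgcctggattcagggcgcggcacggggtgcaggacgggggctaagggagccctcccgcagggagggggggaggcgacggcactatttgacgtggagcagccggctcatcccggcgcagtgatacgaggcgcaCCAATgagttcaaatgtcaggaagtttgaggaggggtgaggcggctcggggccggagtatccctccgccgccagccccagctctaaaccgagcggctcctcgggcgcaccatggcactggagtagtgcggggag
The libraries were stranded, and whether the counting used the strand is not stated. GENCODE M21 gives Lmx1b a start at 33640511, 587 bases from that of RefSeq, and its gene does not overlap C130021I20Rik. Of the tested promoters, 38.2% hold CCAAT on either strand.

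En1, a homeobox factor of the early skull bones, was at 1.83, 0.776 and 2.21 in the base and 14.7, 13.3 and 19.1 in the vault (log2 difference -2.71, SE 0.29, adjusted p 0.00424). Msx2, a homeobox factor needed for growth of the frontal bone, was at 10.7, 11.8 and 13.8 in the base and 73.9, 77.1 and 89.8 in the vault. It had the lowest adjusted p of the list, was 6.63-fold higher in the vault (log2 difference -2.63, SE 0.20, adjusted p 0.000825) and was called in each fit that left out 1 library, as were En1 and Prrx1. Prrx1, a homeobox factor of skeletal mesenchyme, was at 109 to 148 in the base and 289.8 to 311 in the vault (log2 difference -1.22, SE 0.18, adjusted p 0.0158). Msx1, the close relative of Msx2, was at 8.13, 11.7 and 66.7 in the base and 78.9 to 91.9 in the vault. Its base replicate 3 lay near the vault, and it was not called (adjusted p 0.164). The promoter of Msx2, at chr13:53472731-53473030 on the minus strand of GRCm38.p6, is shown because Msx2 had the lowest adjusted p of the vault list, and its capitals mark TAATTA, a GC box GGGCGG and a CCAAT box, which begin 187, 160 and 124 bases before the RefSeq start, itself 294 bases from that of GENCODE M21.
Msx2: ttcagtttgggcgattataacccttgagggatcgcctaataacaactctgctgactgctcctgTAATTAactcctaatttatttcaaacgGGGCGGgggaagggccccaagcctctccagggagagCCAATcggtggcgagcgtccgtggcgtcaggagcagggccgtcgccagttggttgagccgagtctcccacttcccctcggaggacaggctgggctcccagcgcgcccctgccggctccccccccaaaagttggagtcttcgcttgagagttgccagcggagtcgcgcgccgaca
Of the tested promoters, 62.9% hold GGGCGG on either strand.

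The other factors of the vault list had higher adjusted p. Tbx15, a T-box factor of skeletal mesenchyme, was at 21.4 to 30.6 in the base and 41.3 to 58.5 in the vault (log2 difference -0.91, SE 0.20, adjusted p 0.0609), and was called in 3 of the 9 fits that left out 1 library. Alx4, a homeobox factor of the frontal and parietal bones, was at 13.4, 6.81 and 28.6 in the base and 52.2 to 82.7 in the vault (log2 difference -2.21, SE 0.42, adjusted p 0.0418), and lost the call without vault replicate 1 or 3 (0.146 and 0.168). Zic1, a zinc finger factor of the meninges and the vault mesenchyme, was at 27.5, 67.8 and 6.57 in the base and 138, 216 and 156 in the vault (log2 difference -2.77, SE 0.63, adjusted p 0.0713). Zic1 was called only in the fits without base replicate 2 or 3 among those that left out 1 library (0.105 to 0.216 in the other 7). Base replicate 2 was the highest base library for Zic1, Zic2, Zic4 and Zic5, and for Zic4 it reached the vault range. Foxc1, a forkhead factor of the meninges and skull, was at 18.6 to 39.6 in the base and 29.4 to 37.1 in the vault (adjusted p 0.767). Tfap2a, a factor of neural crest and ectoderm, was the single member with a positive log2 difference, at 1.48 to 4.20 in the base and 0.528 to 1.42 in the vault (adjusted p 0.406).

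**Figure D3:**
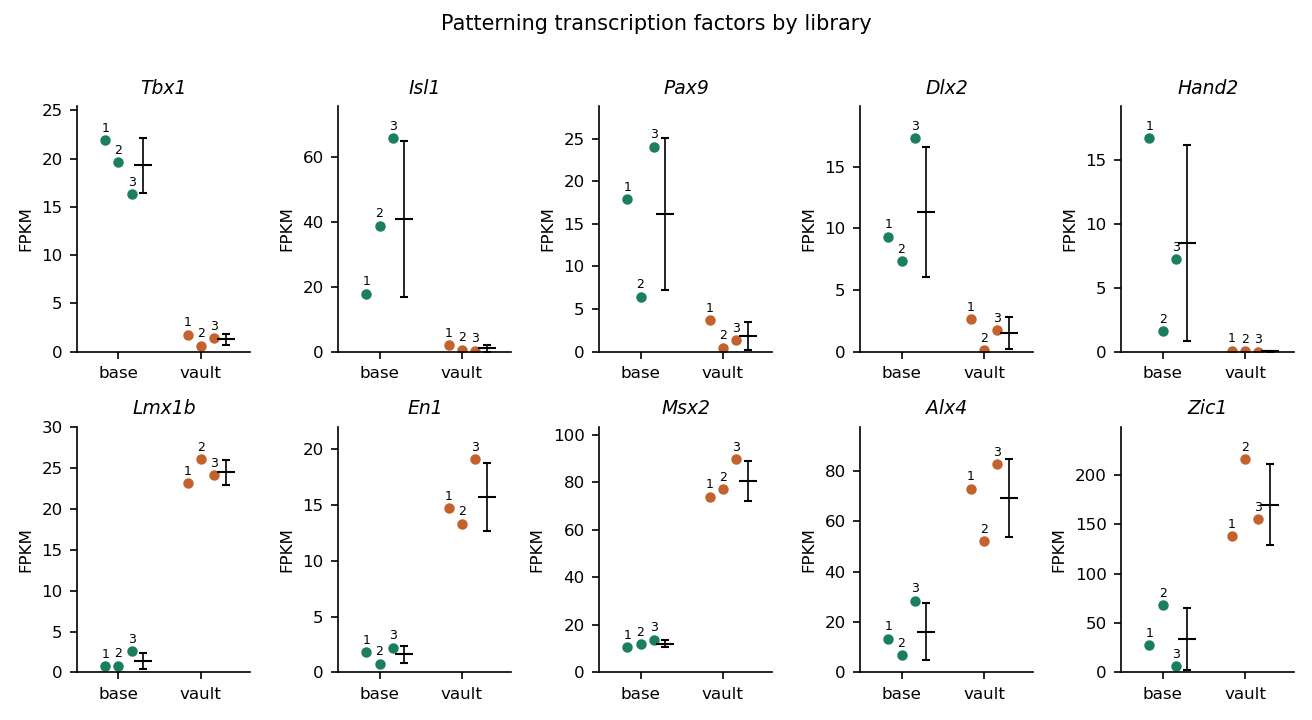
FPKM of 10 patterning transcription factors (vertical axes, linear from 0) in the 3 control cranial base and 3 control cranial vault libraries. Points carry the replicate number, and the bar beside them is the mean ± SD (n = 3). Tbx1, Isl1, Pax9, Dlx2 and Hand2 are above the vault in all 3 base libraries, and Lmx1b, En1, Msx2, Alx4 and Zic1 are below it.

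Factors of the pharynx and the otic region were higher in the base. Of 28 base, otic and pharyngeal patterning factors, 6 were called higher in the base and 0 lower, and the median log2 difference was 0.55. Tbx1, a T-box factor of the pharyngeal arches and otic vesicle, was at 21.9, 19.7 and 16.3 in the base and 1.78, 0.643 and 1.39 in the vault. It was 15.2-fold higher in the base (log2 difference 3.18, SE 0.26, adjusted p 0.00107), called in each fit that left out 1 library, and it was at a similar level in all 3 base libraries. Isl1, a LIM homeobox factor of pharyngeal mesoderm and of sensory neurons, was at 17.9, 38.8 and 65.7 in the base and 2.11, 0.588 and 0.301 in the vault (log2 difference 4.31, SE 0.51, adjusted p 0.00613), and was also called in each of those fits. Dlx2, a homeobox factor of the pharyngeal arches, was at 9.31, 7.33 and 17.3 in the base and 2.65, 0.149 and 1.77 in the vault (log2 difference 2.36, SE 0.45, adjusted p 0.0396). Hand2, a factor of the ventral arches and of sympathetic neurons, was at 16.7, 1.58 and 7.26 in the base and 0.0861, 0.0567 and 0 in the vault (log2 difference 2.79, SE 0.59, adjusted p 0.0547). Dlx2 was no longer called without base replicate 3 or vault replicate 3 (0.104 and 0.123). Hand2 was no longer called without base replicate 3, MCAGF8 replicate 1 or any 1 vault library (0.104 to 0.191).

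Other members of that list varied between the base libraries. Pou3f4, a factor of the mesenchyme around the inner ear, was at 0.697, 48.4 and 1.17 in the base and 0.634 to 1.02 in the vault. Barx1, a homeobox factor of oral and pharyngeal mesenchyme, was at 132, 15.9 and 156 in the base and 12.7, 1.155 and 15.0 in the vault, without overlap (log2 difference 3.18, adjusted p 0.185). Pax1, the relative of Pax9 in the sclerotome, was at 19, 8.73 and 9.40 in the base and 11.1 to 13.9 in the vault (adjusted p 0.986). The Hox genes of groups 1 to 5 also varied by library. Hoxb2 was at 15.5, 5.97 and 4.43 in the base and 0.506, 9.39 and 0.747 in the vault, and 0 of 13 Hox genes tested in these groups were called. Their summed FPKM was 75.3, 39.7 and 36.8 in the base, and 8.94, 56.5 and 7.55 in the vault. Base replicate 1 had the most and vault replicate 2 the next, so the tissues overlapped. Of the 24 Hox genes of groups 6 to 13, 4 passed the filter and 0 were called.

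Among signals, few FGF genes were called. Of 14 FGF ligands tested, 1 was called, and of 5 receptors none was called. The median log2 difference was 0.48 for the ligands, 0.17 for the receptors and 0.32 for 16 feedback regulators and targets. Of the 14 ligands, 12 had a positive log2 difference, 5 lay above the vault without overlap and 1 below it. Fgf2 was the one below, at 5.63 to 6.95 in the base and 9.27 to 12.7 in the vault (log2 difference -0.80, adjusted p 0.162). Fgf8, the ligand raised in the mutant of this series, was at 3.78, 17.4 and 5.82 in the base and 13.5, 8.25 and 3.01 in the vault (log2 difference 0.05, adjusted p 0.995). Fgf18, a ligand of osteogenic mesenchyme and perichondrium, was at 16.6 to 28.3 in the base and 17.4 to 28.1 in the vault (adjusted p 0.998). Fgfr3, the receptor of proliferating chondrocytes, followed the cartilage collagens, at 28.7, 179.7 and 55.2 in the base and 34.9 to 55.9 in the vault. Fgf13, an intracellular member that acts on sodium channels of neurons, was the called ligand, at 42.9, 47.7 and 172 in the base and 11.1 to 16.7 in the vault (log2 difference 2.36, SE 0.46, adjusted p 0.0466). Fgf13 was no longer called without vault replicate 1, 2 or 3 (0.156, 0.107 and 0.176). Of 16 feedback regulators and targets, Etv4, an ETS factor, was higher in the base at 16.7, 25.3 and 25.1, compared with 6.43 to 10.4 (log2 difference 1.32, SE 0.23, adjusted p 0.0303), and lost the call without vault replicate 2 or 3 (0.111 and 0.147). Htra1 was the other called member. Dusp6, a phosphatase induced by FGF, was at 34.7 to 48.4 in the base and 26.9 to 32.6 in the vault (log2 difference 0.41, adjusted p 0.419).

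Of the hedgehog ligands, Shh and Dhh were called higher in the base, and Ihh, given above, was not called. Shh, the ligand of notochord and pharyngeal endoderm, was at 3.36, 1.90 and 4.25 in the base and 0.141, 0.0678 and 0 in the vault (log2 difference 1.92, SE 0.25, adjusted p 0.0105), and was called in each fit that left out 1 library. Dhh, the ligand of Schwann cells, was at 3.98, 2.76 and 8.69 in the base and 0.781 to 1.03 in the vault (log2 difference 1.55, SE 0.34, adjusted p 0.0622). Dhh was no longer called without MCAGF8 replicate 1 or 3 or any 1 vault library (0.111 to 0.197). The targets of the pathway did not pass the test. Ptch1, the receptor that the signal induces, was at 30.4, 59.9 and 56.9 in the base and 24.2 to 31.4 in the vault (adjusted p 0.253), and Gli1 was at 36.9 to 52.1 and 23.9 to 39.1 (adjusted p 0.522). Of 15 hedgehog pathway genes, 2 were called and the median log2 difference was 0.01.

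The Wnt ligands split between the tissues. Of 15 tested, 2 were called in each direction. Wnt7b, an epithelial ligand, was at 5.73, 5.67 and 7.49 in the base and 1.58 to 2.33 in the vault (log2 difference 1.31, SE 0.21, adjusted p 0.0198), called in each fit that left out 1 library. With the 6 control libraries alone, 0 of the 15 ligands were called. Wnt4 was at 6.34, 4.59 and 8.86 in the base and 1.69 to 2.56 in the vault (log2 difference 1.24, SE 0.25, adjusted p 0.0485), and lost the call without MCAGF8 replicate 1 or any 1 vault library (0.104 to 0.200). Wnt2 and Wnt2b were lower in the base, at 4.81, 1.49 and 6.72 compared with 16.9 to 20.3, and at 1.64 to 3.36 compared with 7.81 to 10.6 (log2 differences -1.99 and -1.48, SE 0.37 and 0.25, adjusted p 0.0383 and 0.0262). Wnt2 was no longer called without vault replicate 1, 2 or 3 (0.123, 0.118 and 0.167), nor Wnt2b without vault replicate 2 or 3 (0.112 and 0.116). Axin2, a feedback target of the canonical pathway, was at 14.52 to 23.0 in the base and 19.4 to 25.4 in the vault (adjusted p 0.817).

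Of 40 Wnt antagonists, feedback genes and receptors, 2 were called higher in the base and 3 lower, with a median log2 difference of 0.01. Sostdc1, an antagonist of Wnt and BMP signals, was at 31.7, 16.7 and 69.2 in the base and 5.35 to 9.34 in the vault (log2 difference 2.16, SE 0.43, adjusted p 0.0469), and lost the call without vault replicate 2 or 3 (0.157 and 0.187). Dkk2, an inhibitor at the Lrp receptors, was at 22.1 to 28.9 in the base and 46.3 to 57.0 in the vault (log2 difference -1.04, SE 0.22, adjusted p 0.0588), and lost it without base replicate 3, MCAGF8 replicate 1 or any 1 vault library (0.113 to 0.203). The others were Rnf43, higher in the base (log2 difference 1.10), and Wif1 and Dkk3, lower in the base (log2 differences -1.20 and -0.83), with adjusted p of 0.0781, 0.0969 and 0.0845. None of these 3 was called without any 1 vault or MCAGF8 library (0.101 to 0.326), Wif1 also not without base replicate 1 or 2 (0.180 and 0.126), Rnf43 not without base replicate 3 (0.175), and Dkk3 not without base replicate 1 or 3 (0.123 and 0.183). Frzb, a Wnt antagonist of cartilage, was at 25.0, 44.5 and 57.6 in the base and 12.9 to 23.9 in the vault without overlap (adjusted p 0.222).

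Of 18 genes of the retinoic acid pathway, 3 were called, all higher in the base, while the median log2 difference of the list was -0.04. Aldh1a1, which makes retinoic acid, was at 22.7, 8.65 and 29.5 in the base and 1.92, 1.25 and 2.89 in the vault (log2 difference 2.70, SE 0.41, adjusted p 0.016). Cyp26a1, which degrades it, was at 9.12, 8.80 and 8.11 in the base and 1.746, 2.86 and 2.21 in the vault (log2 difference 1.58, SE 0.24, adjusted p 0.016). Both were called in each fit that left out 1 library, and the 3 base values of Cyp26a1 were nearly equal. With the 6 control libraries alone, 1 of the 18 genes was called. Rdh10, which makes the precursor retinal, was at 18.8 to 20.6 in the base and 11 to 12.5 in the vault (log2 difference 0.69, SE 0.17, adjusted p 0.0939). Rdh10 was called among those fits only without base replicate 1 or 2 (0.107 to 0.279 in the other 7). The remaining 15 genes were not called, among them Aldh1a2, at 45.6, 21.2 and 85.8 in the base and 20.9 to 44.0 in the vault.

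Among BMP, GDF and TGF-beta signals, 2 of 38 were called. Gdf5, the ligand of forming joints, was at 4.29, 13 and 6.53 in the base and 1.63 to 2.12 in the vault (log2 difference 1.52, SE 0.34, adjusted p 0.0672). Grem1, a BMP antagonist, was at 8.04, 5.23 and 4.72 in the base and 1.92 to 2.85 in the vault (log2 difference 1.07, SE 0.27, adjusted p 0.0947). Gdf5 was no longer called without base replicate 3, MCAGF8 replicate 1 or 3 or any 1 vault library (0.118 to 0.212), and Grem1 only without base replicate 2 kept the call (0.113 to 0.309 in the other 8). Bmp4, a ligand of both skeletal programs, was at 40.8, 41.0 and 41.5 in the base and 49.0 to 58.8 in the vault, without overlap (log2 difference -0.35, adjusted p 0.426). Of 13 genes of the IGF system, Igfbp2, a carrier of IGF, was lower in the base at 355 to 417, compared with 820.2 to 1206 (log2 difference -1.42, SE 0.28, adjusted p 0.0471). Igfbp2 lost the call without base replicate 3, MCAGF8 replicate 1 or vault replicate 2 or 3 (0.104 to 0.191). Of 39 genes of sulfation and glycosaminoglycan synthesis, Chst12 was called, lower in the base (log2 difference -0.82, adjusted p 0.0636), and it was not called without any 1 vault library or MCAGF8 replicate 1 or 3 (0.103 to 0.256). Slc26a2, the sulfate transporter of chondrocytes, followed the cartilage collagens, at 5.07, 41.3 and 6.63 in the base and 8.18 to 13.2 in the vault.

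Genes of neurons made up much of what was highest in the base. Of the 12 called genes furthest toward the base by log2 difference, counting those whose mean there was 5 FPKM or more, Sncg, Prph, Nefm, Isl1, Stmn3, P2rx3, Ppp1r1c, Cplx1 and Pirt are known from neurons, and all 9 were highest in base replicate 3. Prph, peripherin, the intermediate filament of peripheral neurons, was at 92.1, 104 and 559 in the base and 11.3, 1.37 and 6.78 in the vault (log2 difference 4.85, SE 0.74, adjusted p 0.016). Sncg, a synuclein of sensory neurons, was at 191, 123 and 793 in the base and 8.18, 2.68 and 2.94 in the vault (log2 difference 5.71, SE 0.61, adjusted p 0.00417). Nefm, a neurofilament chain, was at 40.3, 113 and 268 in the base and 2.58 to 4.34 in the vault (log2 difference 4.64, SE 0.55, adjusted p 0.00605). All 3 were called in each fit that left out 1 library. P2rx3, an ion channel of sensory neurons gated by ATP, was at 6.18, 35.6 and 118 in the base and 0.515 to 1.36 in the vault (log2 difference 4.15, SE 0.80, adjusted p 0.0437). P2rx3 lost the call without vault replicate 1, 2 or 3 (0.115, 0.137 and 0.168). Cplx1, a complexin of the synaptic vesicle, was at 8.38, 11.97 and 59.1 in the base and 0.144 to 0.383 in the vault (log2 difference 3.95, SE 0.57, adjusted p 0.0155), called in each of those fits. The promoter of Prph, at chr15:99054924-99055223 on the plus strand of GRCm38.p6, is shown as that of the leading neuronal gene of the lists, and its capitals mark TATAAA and a GC box on the opposite strand, CCGCCC, which begin 31 and 24 bases before the start.
Prph: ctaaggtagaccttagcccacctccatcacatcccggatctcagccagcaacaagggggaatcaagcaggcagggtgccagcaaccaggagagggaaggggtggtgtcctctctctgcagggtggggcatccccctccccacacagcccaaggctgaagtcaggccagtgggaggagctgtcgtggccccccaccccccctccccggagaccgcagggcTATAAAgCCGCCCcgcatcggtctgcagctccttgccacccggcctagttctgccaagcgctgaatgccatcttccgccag

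Of the 11 genes of cranial ganglia tested, 5 were called higher in the base, and the median log2 difference was 2.90. Their summed FPKM was 173, 217 and 927 in the base and 62.1, 55.8 and 64.9 in the vault. Th, the enzyme of catecholamine synthesis, was at 17.2, 5.97 and 25.2 in the base and 0.485 to 0.993 in the vault (log2 difference 3.09, SE 0.43, adjusted p 0.0127). Th was called in each fit that left out 1 library.

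Of 14 genes of brain neurons and progenitors, 6 were called higher in the base, and the sum was 359, 467 and 1391 in the base and 49.1 to 121 in the vault. Nefl, a neurofilament chain, was at 59.7, 105 and 362 in the base and 8.62 to 9.90 in the vault (log2 difference 3.67, SE 0.52, adjusted p 0.0136), called in each fit that left out 1 library. Stmn2, a tubulin-binding protein of growing axons, was at 192, 100.3 and 470 in the base and 12.1 to 40.3 in the vault (log2 difference 2.95, SE 0.59, adjusted p 0.0482). Stmn2 was no longer called without base replicate 3 or any 1 vault library (0.112 to 0.146). Of the 14 genes, 11 had a positive log2 difference and 3 a negative one. Pax6 and Olig2, factors of forebrain and spinal cord progenitors, were chosen after their values were seen. Pax6 was at 0.120 to 1.14 in the base and 0 to 2.57 in the vault. Olig2 was at 0, 0 and 1.6 in the base and 0.0773 to 4.02 in the vault. Glial genes moved with the neuronal ones. Of 10 Schwann cell and glial crest genes, 3 were called higher in the base. Sox10, the factor of glial crest, was at 13.1, 48.2 and 44.2 in the base and 3.67 to 9.13 in the vault (log2 difference 2.09, SE 0.49, adjusted p 0.0758). Sox10 was called among the fits that left out 1 library only without base replicate 1 (0.106 to 0.234 in the other 8).

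**Figure D4:**
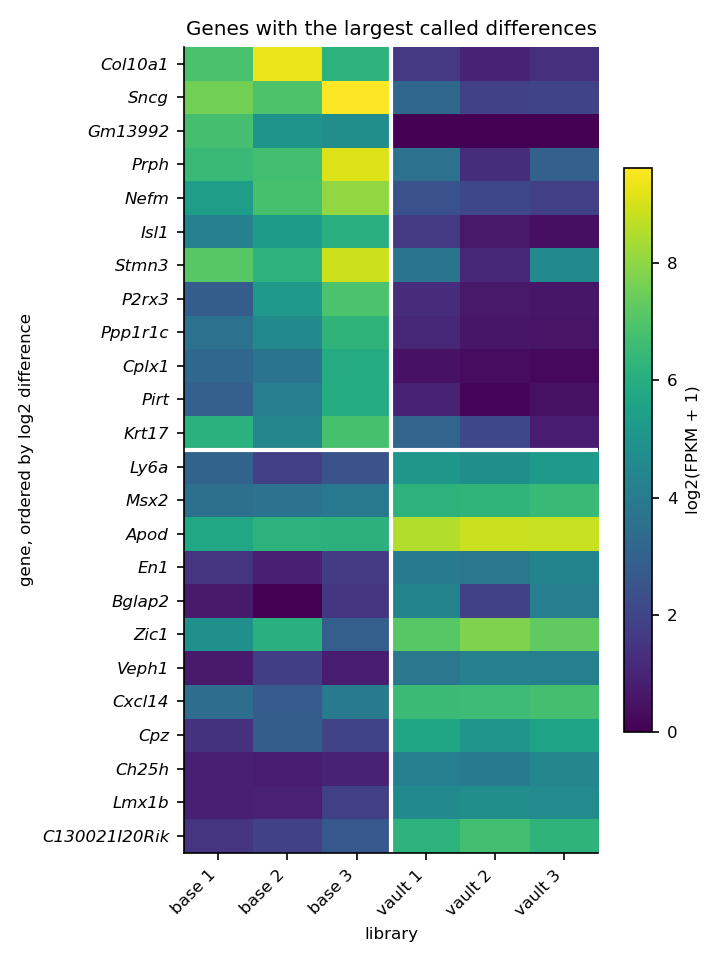
Heat map of log2(FPKM + 1) for called genes (vertical axis) whose mean FPKM was 5 or more in the higher tissue, the top 12 being those furthest toward the base and the bottom 12 those furthest toward the vault, in the 6 control libraries (horizontal axis). Most genes of the upper part are brightest in base 3, Col10a1 is brightest in base 2, and the lower part is even across the 3 vault libraries apart from Bglap2.

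The remaining genes high in the base were Krt17 and Gm13992. Krt17, a keratin of embryonic epithelium, was at 70.3, 20.7 and 111 in the base and 7.93, 3.29 and 0.708 in the vault (log2 difference 3.79, SE 0.68, adjusted p 0.032), and lost the call without vault replicate 2 or 3 (0.105 and 0.122). Gm13992 is a processed pseudogene of 156 bases on chromosome 2, was at 109.8, 30.7 and 25.8 in the base and was listed at 0 in all 3 vault libraries (adjusted p 0.00114). Base replicate 1, in which Gm13992 was highest, also had the most negative slope on exon length. The slope was taken on log2(FPKM + 1) relative to each gene's mean over the 9 libraries. It was -0.21 per doubling of length, compared with -0.06 to 0.10 in the other control libraries. The part of this in the value of Gm13992 was not tested.

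The genes highest in the vault included several that belong to no list. Ch25h, which makes 25-hydroxycholesterol, was at 0.80, 0.660 and 0.911 in the base and 17, 14.9 and 21.1 in the vault (log2 difference -3.37, SE 0.23, adjusted p 0.000398). Cxcl14, a chemokine of mesenchyme and skin, was at 9.87, 5.96 and 14.1 in the base and 94.1 to 108 in the vault (log2 difference -3.26, SE 0.29, adjusted p 0.00184). Cpz, a carboxypeptidase that binds Wnt proteins, was at 1.66, 6.14 and 2.91 in the base and 32.6 to 49.2 in the vault (log2 difference -3.36, SE 0.34, adjusted p 0.00368). Apod, a carrier of lipids made by fibroblasts, was at 53.7 to 74.0 in the base and 364 to 468 in the vault (log2 difference -2.66, SE 0.22, adjusted p 0.00114). Ly6a, the surface protein Sca-1, was at 2.5 to 7.30 in the base and 26.6 to 35.8 in the vault (log2 difference -2.59, SE 0.34, adjusted p 0.0113), and Veph1 was at 0.626 to 2.49 and 13.1 to 18 (log2 difference -3.00, SE 0.33, adjusted p 0.00424). All 6 were called in each fit that left out 1 library.

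Epithelial genes were called in 1 direction, higher in the base. Of 15 genes of pharyngeal and other simple epithelium, 6 were called higher in the base, 11 did not overlap, and the median log2 difference was 2.14. Their sum was 358, 204 and 498 in the base and 89.5, 27.9 and 84.8 in the vault. Cldn8, a tight junction claudin, was at 5.32, 6.47 and 4.79 in the base and 0.407, 0.0522 and 0.222 in the vault (log2 difference 2.41, SE 0.23, adjusted p 0.00236), called in each fit that left out 1 library. Krt19, a keratin of simple epithelium, was at 60.3, 13.6 and 86.2 in the base and 3.99 to 5.23 in the vault (log2 difference 2.95, SE 0.55, adjusted p 0.039), and lost the call without vault replicate 1, 2 or 3 (0.115, 0.126 and 0.157). Epcam, the epithelial adhesion molecule, was at 41.3, 37.1 and 46.6 in the base and 12.5, 1.6 and 11.6 in the vault (log2 difference 2.48, SE 0.54, adjusted p 0.0604), and lost it without base replicate 1 or 3, MCAGF8 replicate 1 or 3 or vault replicate 3 (0.10 to 0.16). The 18 epidermal genes summed to 592, 94.4 and 813 in the base and 55.6, 146 and 37.8 in the vault. Krt14, the basal keratin, was at 89.7, 11.52 and 162 in the base and 0.798 to 22.1 in the vault (adjusted p 0.192). Pkp3, a desmosomal plakophilin, was the called member (log2 difference 1.87, adjusted p 0.0994), and among the fits that left out 1 library it was called only without base replicate 2 (0.111 to 0.334 in the other 8).

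Skeletal muscle genes varied within both tissues. The 28 genes summed to 15799, 2882 and 7289 in the base and 1584, 9252 and 2543 in the vault. Base replicate 1 and vault replicate 2 were thus the libraries richest in muscle RNA, and 0 of the 28 genes were called. Acta1, skeletal actin, was at 967, 252 and 467 in the base and 129.9, 848 and 227 in the vault (adjusted p 0.885). Inner ear genes were high in 1 base library. Oc90, the main protein of otoconia, was at 5.25, 753 and 4.16 in the base and 0.640 to 3.77 in the vault, and the 8 inner ear genes tested summed to 12.6, 845 and 21.3 in the base and 14.1 to 15.9 in the vault. Base replicate 2 was therefore the library highest in cartilage collagens, in otic genes and, for Pou3f4, in a factor of periotic mesenchyme. Its values exceeded both other base libraries by at least 4-fold in 162 genes, including all 7 cartilage collagens, 10 of 23 cartilage matrix genes and 6 of 8 inner ear genes. The corresponding numbers were 105 for base replicate 1 and 79 for base replicate 3, and 32, 73 and 22 for vault replicates 1, 2 and 3.

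Among blood and vessel genes, every called member was lower in the base. The erythroid list, 13 genes tested, summed to 11106, 5066 and 9217 in the base and 12629 to 17883 in the vault, and 1 member was called. Hba-x, the embryonic zeta globin, was at 31.0, 26.4 and 26.2 in the base and 54.6, 121 and 97.7 in the vault (log2 difference -1.60, SE 0.34, adjusted p 0.0547), and lost the call without base replicate 3 or vault replicate 2 or 3 (0.145, 0.189 and 0.209). Of 14 macrophage genes, all with a negative log2 difference, 3 were called lower in the base. Csf1r, the receptor that macrophages need, was at 13.2, 10.6 and 16.2 in the base and 25.3 to 31.9 in the vault (log2 difference -1.04, SE 0.23, adjusted p 0.0662), and Mrc1, the mannose receptor, was at 9.43 to 13.4 and 21.3 to 32.5 (log2 difference -1.18, SE 0.23, adjusted p 0.0464). Csf1r was no longer called without MCAGF8 replicate 1 or any 1 vault library (0.133 to 0.221), nor Mrc1 without base replicate 3 or vault replicate 1 or 2 (0.107, 0.167 and 0.166). The third, Adgre1, was not called without any 1 of the MCAGF8 or vault libraries (0.106 to 0.265). Of 10 osteoclast and RANKL genes 0 were called. Ctsk, the collagen-degrading protease of osteoclasts, was at 88.6, 36.4 and 105 in the base and 148 to 259.7 in the vault (adjusted p 0.124).

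Of 15 endothelial genes, 1 was called, Tek, the receptor of angiopoietins, at 11.1 to 13.6 in the base and 23.6 to 26.5 in the vault (log2 difference -0.95, SE 0.17, adjusted p 0.0334). Tek lost the call without vault replicate 1, 2 or 3 (0.148, 0.126 and 0.137), and Pecam1 was at 48.7 to 61.4 and 51.0 to 69.9 (adjusted p 0.942). Of the meninges list, 0 of 9 were called, and Ptgds was at 422, 147 and 19.5 in the base and 139.7 to 186 in the vault. Of 10 dermal genes, Dcn was the called one, and Twist2, a factor of dermal and osteoblast progenitors, was at 14.8 to 43.5 in the base and 28.8 to 39.6 in the vault (adjusted p 0.812). In the lists of notochord and pituitary, Shh and Foxa2 were called, T (brachyury) was at 0.593 to 0.979 in the base and 0.205 to 0.285 in the vault (adjusted p 0.454), and 8 of the 10 pituitary genes fell below the filter. None of 5 melanocyte genes, 24 proliferation genes, 26 glycolysis and hypoxia genes, 28 ribosomal protein genes, 18 stress genes and 17 housekeeping genes was called by limma. The median log2 differences of these 6 lists were 0.24, -0.14, -0.11, 0.07, -0.01 and -0.07.

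**Figure D5:**
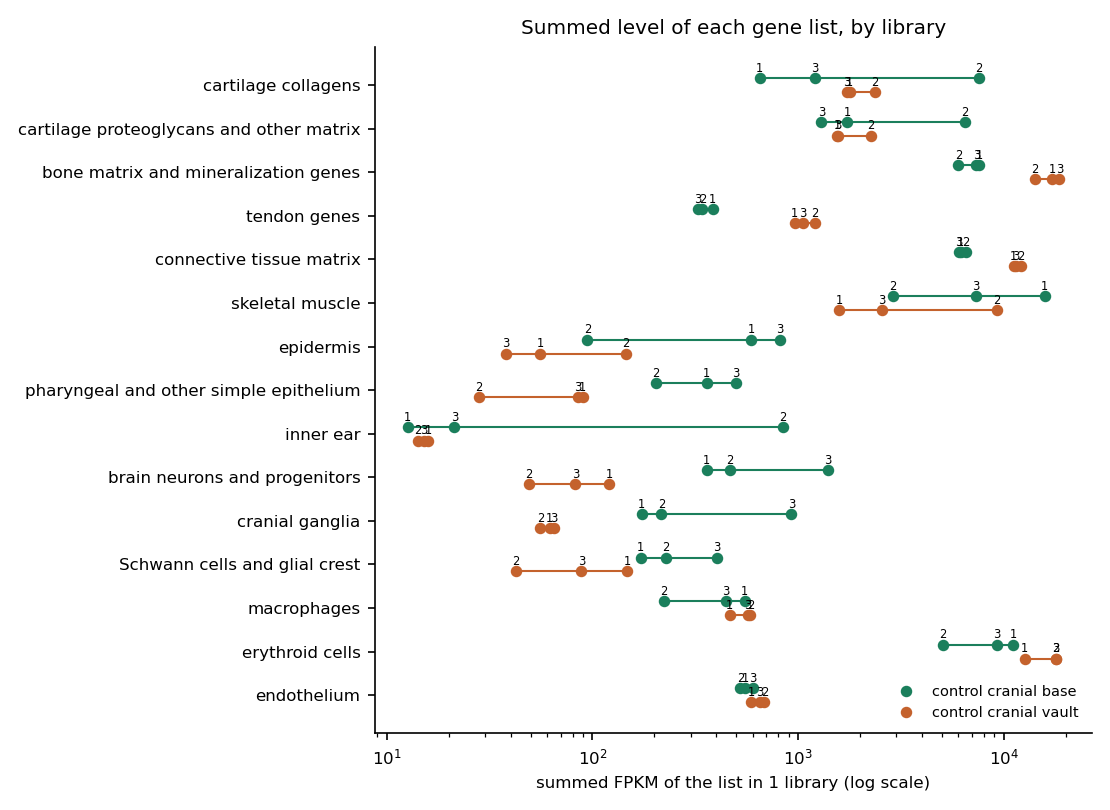
Summed FPKM of 15 gene lists (horizontal axis, log scale) in each control library, with base libraries in green, vault libraries in orange and the replicate number above each point; the line joins the lowest and highest library of a tissue. Bone matrix, tendon and connective tissue sums are separated between the tissues, while cartilage, muscle and inner ear sums spread more within the base than the tissues differ.

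The pools also differed in sex-linked genes. Eif2s3y, a gene of the Y chromosome, was at 2.21, 10.7 and 1.20 in the base and 40.0, 0.169 and 3.50 in the vault, and Xist, expressed from the inactive X chromosome, was at 148, 508 and 102 in the base and 42.5, 160.3 and 52.2 in the vault. Of 5 sex-linked genes, 0 were called. The part of muscle, nerve, epithelium, inner ear and sex in the differences given above was not tested. Of the 573 called genes, 543 were also called without base replicate 2.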

How the data were processed

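The authors mapped single-end reads of stranded mRNA libraries with gSNAP, derived expression with Cufflinks, and deposited FPKM per Ensembl gene in 1 table of the 9 libraries. Neither the build nor the annotation release nor the program versions are stated in what was read here. Cufflinks FPKM do not return read numbers, so depth is unknown. Precision is described by 1 spread per gene, shared by the 3 groups of 3 pools. The base libraries differed more among themselves, so the shared spread can be lower than that of the base. Nothing says more of how separate the pools are, so p-values measure the spread between these libraries.

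Repeated identifiers (63 rows) were added together, leaving 43548 identifiers, and 9 genes with a placeholder in place of 1 or more values (17 cells in all) were left out. Genes with a mean FPKM of 0.5 or more over the 9 libraries (18714) were fitted as log2(FPKM + 1), with a pseudocount of 1, by limma 3.58.1 in R 4.3.3 (1 mean per group over all 9 libraries, eBayes with trend, two-sided, Benjamini-Hochberg). The 3 MCAGF8 libraries entered the error with its trend, the filter and the search for placeholders, but not the log2 difference. The procedure was tested on simulated data. Tables and plots used Python 3.11.15, pandas 2.3.3, numpy 2.4.6 and matplotlib 3.10.9.

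The comparison, the lists and the tests were chosen with earlier results of these data known, so the lists are described by counts and medians beside all genes and give no independent support. Named genes were those marked by role in the lists, the 12 called genes furthest to each side (mean FPKM of 5 or more in the higher tissue) and up to 6 called members of each list. Outside this rule, Barx1, Bglap3, Comp, Dmp1, Dusp6, Eif2s3y, Olig2, Pax6, Pou3f4, Tbx15, Xist, Zic4 and Zic5 were chosen after their values were seen. Gene positions came from GENCODE M21 on GRCm38, and promoters from a RefSeq table of GRCm38.p6 that held 11928 of the tested genes. Foxc2, Cdh15, Tubb3, Drgx, Ahsp, Ca9 and Rpl13 were not analysed here. The alternatives were other pseudocounts, filters, scalings, thresholds, weights and libraries, a removed length and GC trend, and the replicate number as a block. Some genes are not reported here.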

Additional observations from a re-analysis of the deposited data

How the results depend on the processing

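Each pool was taken as independent, and 3 pools a tissue with an unknown depth limit what can be called. The number of called genes (573, of which 347 were higher in the base and 226 in the vault, 99 of them list members) moved with several choices, and the causes were not tested. With the 6 control libraries alone it was 108 (59, 49 and 21), and with FPKM without the log 179 (76, 103 and 30). An adjusted p under 0.05 gave 255 (149, 106 and 59), an unadjusted p under 0.05 gave 2396 (1514, 882 and 246), and no moderation gave 257 (130, 127 and 44). Array weights, whose estimation gave a convergence warning, gave 1045 (761 higher in the base), removal of the length and GC trend 1246 (742, 504 and 162), and a mean FPKM of at least 5 gave 291 (123 higher in the base, 42.3% of the calls). The genes higher in the vault numbered 390 after quantile normalization and 354 after rescaling to a common median, which left 51.2% of the calls higher in the base.

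Leaving out 1 library gave 132 to 1322 called genes, 82 to 945 higher in the base, 50 to 377 higher in the vault and 27 to 153 list members. The number was 934 without base replicate 1, 1322 without base replicate 2, 279 and 322 without MCAGF8 replicates 1 and 3, and 190, 211 and 132 without vault replicates 1, 2 and 3. The control libraries without base replicate 2, an alternative chosen after seeing the data, gave 575. The replicate number as a block gave 234 called genes (156 higher in the base, 78 in the vault, 51 list members). This fit held all 9 libraries, so the MCAGF8 pools, from other embryos than the controls, shared blocks with same-numbered control pools. The correlations of the deviations of same-numbered base and vault libraries were -0.41, 0.0003 and 0.24. With 3 libraries a tissue, these values cannot show whether same-numbered pools share embryos. Of the 105 called genes named here, 17 were called under every alternative and 38 in every fit that left out 1 library, and all 105 kept their sign under every alternative. With the 6 control libraries alone, 32 of the 105 were called. Of the 108 named genes that were not called, 43 changed sign under at least 1 alternative.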

Other observations

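Other motifs were searched in the same promoters on both strands. The RUNX core TGTGGT was held by 12.2% of the 11928 promoters of tested genes, by 9.17% of the 229 of genes called higher in the base and by 12.6% of the 159 of genes called higher in the vault. The E-box CAGCTG was held by 15.4%, 20.5% and 21.4% in the same order, and the homeodomain core TAATTA by 2.57%, 3.93% and 5.03%. These shares are descriptions, and no test was run on them.

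Further collagens of soft connective tissue were called lower in the base. Col3a1, a fibrillar collagen of skin and vessels, was at 1129, 1082 and 1230.3 FPKM in the base and 2314 to 2774 in the vault (log2 difference -1.12, SE 0.28, adjusted p 0.0969 in limma). Col6a1, a chain of beaded filaments around cells, was at 166 to 193 in the base and 293 to 377 in the vault (log2 difference -0.84, SE 0.19, adjusted p 0.0661). Col14a1, which binds to collagen fibrils, was at 54.6 to 107 in the base and 142 to 221 in the vault (log2 difference -1.19, SE 0.28, adjusted p 0.0781). The 3 genes were chosen after their values were seen, and each was called in 2 or 3 of the 9 fits that left out 1 library.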
